A study of Homo sapiens with 18 samples.

Results

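The genes described here are CDK inhibitors, D cyclins and MYC. They include genes through which TGFβ is known to hold back the cell cycle, and known losses of the lung cancer lines used. They were chosen by name, as the rows of the deposited expression table whose gene symbol was CDKN1A, CDKN1B, CDKN1C, CDKN2A, CDKN2B, CDKN2C, CCND1, CCND2, CCND3 or MYC. All 10 were found, each as 1 of the 19849 genes of the table and each read by 1 probe set. The study took 3 human lines of non-small cell lung cancer (A549, HCC827, NCI-H358), each as parental cells and as a mesenchymal derivative. RNA was read on 18 Affymetrix U133 Plus 2.0 arrays, 3 for each of the 6 groups.

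HCC827 is driven by an EGFR with a deletion. All groups were grown in RPMI1640 with 10% FBS and 4 mM glutamine. The mesenchymal cells had received 2 ng/ml TGFβ for 3 weeks by the labels, while the methods give other ranges for the lines, and the cytokine was left out of the medium from the day before lysis. The mesenchymal arrays therefore read cells after a long exposure and a day's withdrawal, and the parental cells received no TGFβ. The 3 samples of a group were made at the same time from 1 line, so the p values measure the spread between parallel samples of that line. Values are RMA levels on the log2 scale, on which a difference of 1 is a 2-fold change. Array medians lay between 6.31 and 6.47. All 5 epithelial markers examined (EPCAM, CDH1 and keratins) fell and all 5 mesenchymal markers (CDH2, VIM, ZEB1, SNAI1, FN1) rose in each line. The sizes differed between lines. In A549, HCC827 and NCI-H358, 3, 5 and 5 epithelial markers fell over 2-fold, and 2, 4 and 4 mesenchymal markers rose over 2-fold. Of 8 markers of leukocytes, endothelium and fibroblasts, 1 rose and 1 fell in A549, 1 rose and 1 fell in HCC827, and none was called in NCI-H358.

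As background, cells pass from G1 into S phase when D cyclins activate CDK4 and CDK6 and E and A cyclins activate CDK2. These kinases phosphorylate RB, which then releases E2F factors to switch on the genes of DNA synthesis. The INK4 proteins (CDKN2A encodes p16, CDKN2B p15 and CDKN2C p18) bind CDK4 and CDK6, whereas the CIP/KIP proteins (CDKN1A encodes p21, CDKN1B p27 and CDKN1C p57) bind cyclin-CDK complexes more broadly. In normal epithelium, TGFβ acts through SMAD proteins to induce CDKN2B and CDKN1A and to repress MYC, a transcription factor that itself holds CDKN2B and CDKN1A down. Carcinomas often lose this cytostatic arm while still undergoing an epithelial-mesenchymal transition (EMT) in response to the cytokine. A549 is known to carry a homozygous deletion of CDKN2A and CDKN2B.

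Upon EMT, the members moved differently in each line. The arrays average over a culture, so a large change in some cells and a small one in all cells cannot be told apart. A gene is said to have risen or fallen where the Benjamini-Hochberg adjusted p of limma, over all 19849 genes, was below 0.05. In A549, 2 of the 10 members rose (CDKN1A and CCND1) and 2 fell (CDKN2C and CCND3), while 16.6% of all genes rose and 26.8% fell. In HCC827, 6 rose (CDKN1A, CDKN1C, CDKN2B, CDKN2C, CCND1 and CCND3) and 1 fell (CDKN1B), against 20.8% and 25% of all genes. In NCI-H358, 4 rose (CDKN2A, CDKN2B, CCND3 and MYC) and 3 fell (CDKN1A, CDKN1B and CDKN2C), against 21.5% and 19.8% of all genes. With a fold change over 2 as well, 2, 4 and 2 members rose in A549, HCC827 and NCI-H358 and none fell, where 4.15%, 4.89% and 3.96% of all genes rose and 3.87%, 6.58% and 5.42% fell. At the paper's thresholds, an adjusted p below 1e-05 and a fold above 5, 0 members passed in any line by limma, whereas 1.9%, 2.95% and 2.17% of all genes did. With the limma adjusted p alone, 4, 7 and 7 members were called in the 3 lines in either direction, beside 43.4%, 45.8% and 41.4% of all genes.

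**Figure D1:**
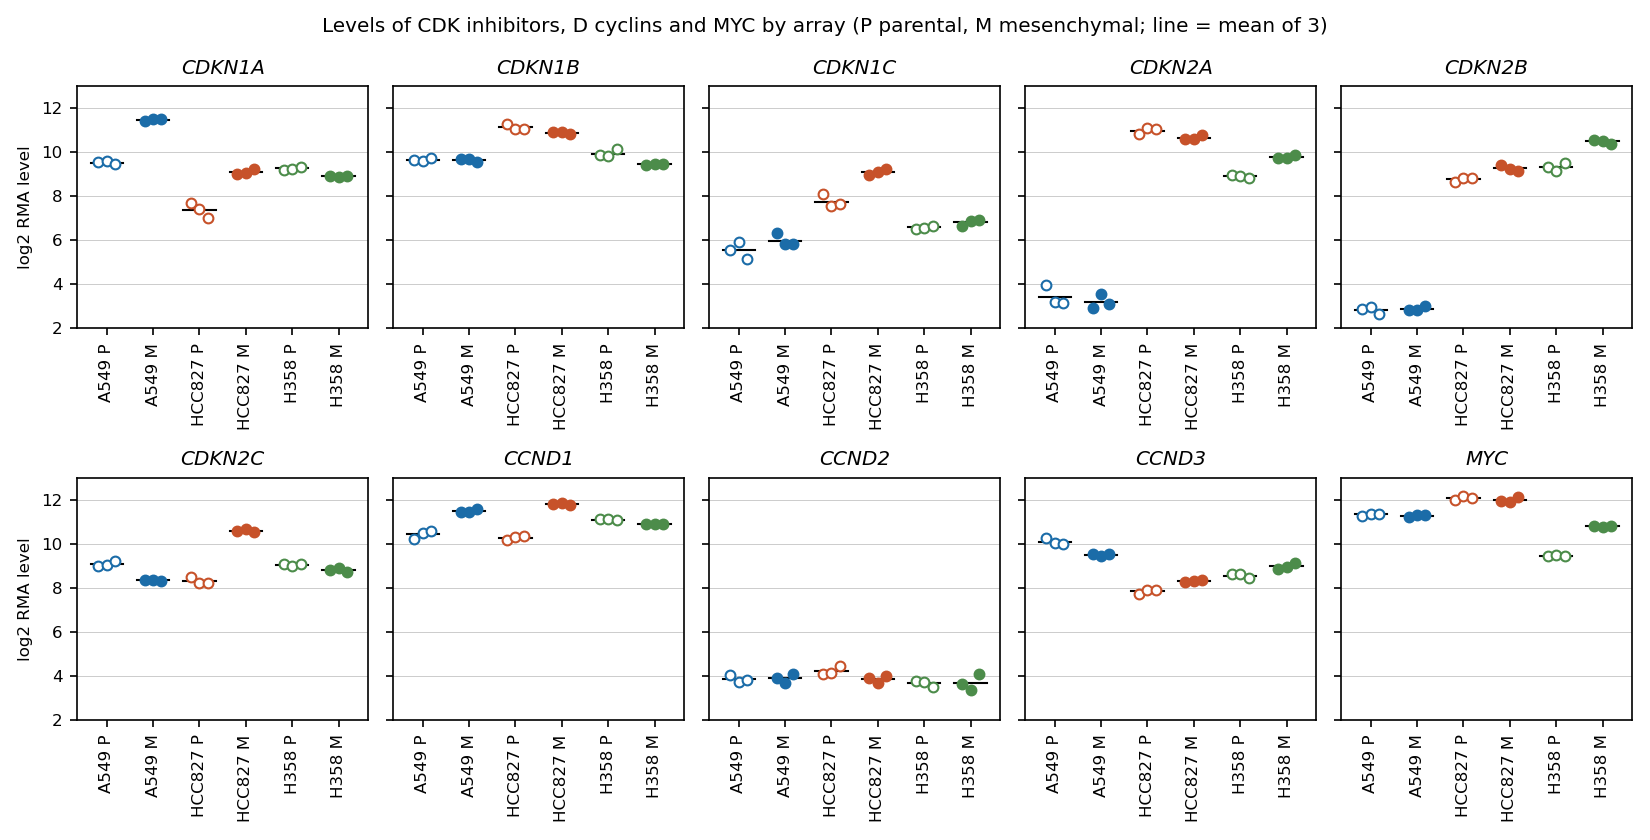
Log2 RMA level (y axis) of the 10 members on each of the 18 arrays (points), in parental (P, open) and mesenchymal (M, filled) cells of A549 (blue), HCC827 (orange) and NCI-H358 (H358, green); the line is the mean of 3 arrays. CDKN2A and CDKN2B lay at or below 3.95 on all A549 arrays, and MYC in NCI-H358 rose from 9.45 to 10.79; levels of different genes come from different probe sets and are not compared.

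**Figure D2:**
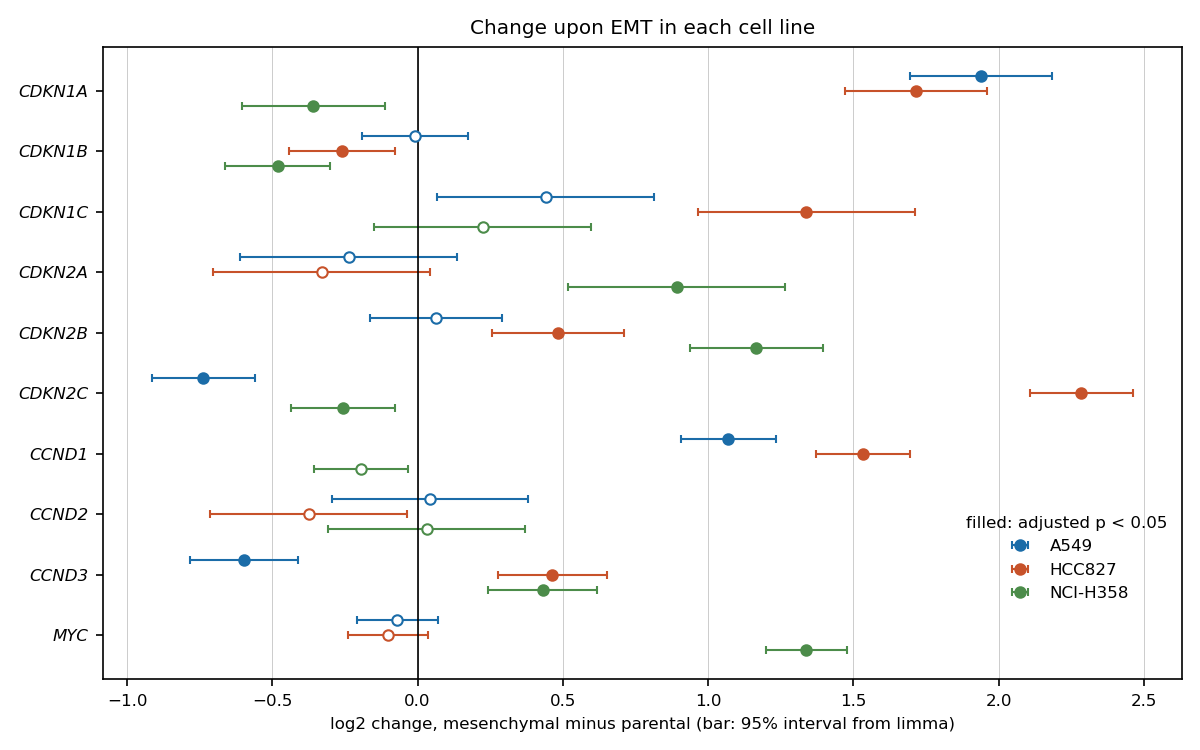
Log2 change from parental to mesenchymal cells (x axis) of each member in the 3 lines, with its 95% interval from limma and 3 arrays per group; filled points have an adjusted p below 0.05. CDKN1A and CCND1 lay above 0 in A549 and HCC827 and below 0 in NCI-H358, where CCND1 (95% interval -0.36 to -0.03) did not pass the adjusted test; CDKN2C lay at 2.28 in HCC827 and below 0 in the other lines.

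The INK4 genes CDKN2A and CDKN2B lie side by side on chromosome 9. The bases just upstream of their RefSeq starts are shown because CDKN2B is the classical TGFβ-induced member, and because these are the genes that read near the low end of the scale in A549. CDKN2A has a pair of starts, of which the second here lies in front of the exon specific to p16. Each line gives the 250 bases before the start, 5′ to 3′ on the gene's strand, in build GRCh38.p14. Capitals mark the GC box GGGCGG, on either strand, a motif that SP1-type factors are known to bind.
CDKN2A, first start, chr9:21995325-21995574, minus strand: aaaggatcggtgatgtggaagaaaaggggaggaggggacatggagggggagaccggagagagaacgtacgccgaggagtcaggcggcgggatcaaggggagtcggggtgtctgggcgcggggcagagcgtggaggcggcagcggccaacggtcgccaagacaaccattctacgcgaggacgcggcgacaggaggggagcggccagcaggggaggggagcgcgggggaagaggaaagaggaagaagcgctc
CDKN2A, second start, chr9:21974858-21975107, minus strand: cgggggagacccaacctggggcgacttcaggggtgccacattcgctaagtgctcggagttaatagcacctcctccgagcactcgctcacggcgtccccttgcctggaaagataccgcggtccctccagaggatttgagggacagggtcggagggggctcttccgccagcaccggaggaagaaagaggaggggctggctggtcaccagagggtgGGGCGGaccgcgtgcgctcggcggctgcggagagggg
CDKN2B, chr9:22009306-22009555, minus strand: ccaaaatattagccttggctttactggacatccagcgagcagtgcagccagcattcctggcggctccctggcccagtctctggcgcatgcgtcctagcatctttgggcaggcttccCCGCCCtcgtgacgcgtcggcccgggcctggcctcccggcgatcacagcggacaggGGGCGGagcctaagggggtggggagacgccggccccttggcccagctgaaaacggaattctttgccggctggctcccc
The GC box was found 0 times and 1 time before the CDKN2A starts and 2 times before the CDKN2B start, and 42.6% of the 35116 promoter windows of this length held at least 1. The SMAD element CAGAC, on either strand, was found once before the first CDKN2A start and not before the other CDKN2A start or the CDKN2B start, and in 38% of all windows. The expression table does not say which CDKN2A transcripts its probe set reads.

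CDKN2B was at the bottom of the scale in A549 and rose upon EMT in both other lines. In A549 it read 2.87, 2.96 and 2.67 in parental and 2.82, 2.84 and 3.02 in mesenchymal cells, so that the groups overlapped, and the change was 0.06 ± 0.11 (SE; limma adjusted p = 0.685). Its mean there lay at percentile 2.97 of the array in parental and 3.22 in mesenchymal cells. In HCC827 the parental arrays read 8.66, 8.84 and 8.84 and the mesenchymal arrays 9.42, 9.24 and 9.13. Every mesenchymal array was higher, a rise of 0.48 ± 0.11 or 1.40-fold (limma adjusted p = 0.0012). In NCI-H358 the levels were 9.31, 9.13 and 9.51 before and 10.57, 10.51 and 10.38 after EMT. This rise of 1.17 ± 0.11, or 2.25-fold, was the larger one (limma adjusted p = 1.018e-07), and it exceeded that of HCC827 by 0.68 ± 0.15 (limma adjusted p = 0.00164). HCC827 in turn exceeded A549 by 0.42 ± 0.15 (limma adjusted p = 0.0351), a difference that missed the threshold in 6 of the 12 fits that left out an array, namely without replicate 1 or 2 of either A549 group or replicate 1 of either HCC827 group (0.34 to 0.40, adjusted p from 0.067 to 0.0969). With the A549 signal at the bottom of the scale in both states, this contrast mostly restates the HCC827 rise.

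CDKN2A showed the same low signal in A549, and it rose in NCI-H358. Its A549 arrays read 3.95, 3.19 and 3.17 in parental and 2.93, 3.55 and 3.12 in mesenchymal cells, with overlapping groups and means at percentiles 9.86 and 6.50 of the array. The NCI-H358 arrays read 8.96, 8.91 and 8.83 before and 9.75, 9.74 and 9.89 after EMT. These groups did not overlap, and CDKN2A rose by 0.89 ± 0.18, or 1.86-fold (limma adjusted p = 0.000487). In HCC827 it stood at 10.81, 11.09 and 11.04 in parental and 10.59, 10.58 and 10.78 in mesenchymal cells. All mesenchymal arrays were lower, but the change of -0.33 ± 0.18 did not pass (limma adjusted p = 0.148), and it passed when HCC827 was fitted alone (-0.33, adjusted p = 0.0353) or with array weights (-0.44, adjusted p = 0.0283). The change in NCI-H358 differed from that in HCC827 by 1.22 ± 0.25 (limma adjusted p = 0.000806).

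Both genes differed far more between A549 and the other lines than between the states. Among parental cells CDKN2A was 7.54 ± 0.18 higher on the log2 scale in HCC827 than in A549 (limma adjusted p = 7.416e-16) and 5.46 ± 0.18 higher in NCI-H358 (limma adjusted p = 3.727e-14). CDKN2B was higher than in A549 by 5.95 ± 0.11 in HCC827 and by 6.49 ± 0.11 in NCI-H358 (limma adjusted p = 3.397e-17 and 8.554e-18). Since the A549 signals of both genes lie at the low end of the scale, these differences can only be read as lower bounds. Parental NCI-H358 minus parental HCC827 was -2.08 ± 0.18 for CDKN2A and 0.54 ± 0.11 for CDKN2B (limma adjusted p = 2.046e-08 and 0.000387). For CDKN2B this was smaller than its rise of 1.17 upon EMT in NCI-H358. Down from the highest, the groups stood for CDKN2A in the order parental HCC827, mesenchymal HCC827, mesenchymal NCI-H358, parental NCI-H358, parental A549 and mesenchymal A549. Of these neighbours, the A549 groups overlapped, and the HCC827 groups did not overlap but missed the threshold, as given above. For CDKN2B the order was mesenchymal NCI-H358, parental NCI-H358, mesenchymal HCC827, parental HCC827 and the A549 groups. Of these neighbours, parental NCI-H358 and mesenchymal HCC827 differed by 0.05 (limma adjusted p = 0.728), and the A549 groups also did not differ beyond their spread.

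MTAP, the metabolic gene next to CDKN2A that is often deleted with it, was also at the low end in A549. It read between 2.46 and 2.84 in parental and between 2.60 and 2.69 in mesenchymal A549 cells. Parental HCC827 was higher by 6.26 ± 0.11 and parental NCI-H358 by 4.71 ± 0.11 (limma adjusted p = 2.139e-17 and 5.831e-16), again lower bounds because of the low A549 signal. MTAP fell upon EMT in HCC827, from 8.87 ± 0.03 to 7.68 ± 0.20 (SD, n = 3; limma adjusted p = 6.916e-08), and in NCI-H358, from 7.33 ± 0.18 to 6.86 ± 0.06 (limma adjusted p = 0.00212). Farther along the chromosome, FOCAD read between 8.50 and 9.83 as a group mean in all 6 groups. The probe sets of CDKN2B-AS1, the antisense RNA of the locus, and of the interferon gene IFNA1 were at the low end in every group, at most 2.92 as a group mean, so they do not separate A549 from the other lines.

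Other genes of this region did not all move in the same direction upon EMT. Of the 12 neighbours measured, 6 passed the test as higher and 1 fell in A549, 3 rose and 3 fell in HCC827, and 0 rose and 3 fell in NCI-H358. Of all genes, 16.6%, 20.8% and 21.5% rose and 26.8%, 25% and 19.8% fell in these lines. With 12 genes, the counts are not read as a result about the region. MIR31HG, the host transcript of miR-31, rose by 1.63 in A549 (limma adjusted p = 1.311e-10) and by 2.33 in HCC827 (limma adjusted p = 9.538e-13) and fell by 0.40 in NCI-H358 (limma adjusted p = 0.00147). IFNE, an interferon of epithelia, rose by 2.14 in A549 and 2.30 in HCC827 (limma adjusted p = 2.659e-09 and 7.416e-10). MLLT3 fell by 1.43 in A549 and by 0.53 in HCC827 (limma adjusted p = 1.809e-07 and 0.00391). KLHL9 (0.65) and ELAVL2 (0.69) rose in A549, and ELAVL2 (0.72) in HCC827, while DMRTA1 rose in A549 by 0.33. These were dim signals, so the rises are poorly measured. The group means of ELAVL2 were 3.74 and 4.43 in parental and mesenchymal A549 and 4.15 and 4.87 in HCC827. In A549 those of DMRTA1 were 4.51 and 4.84 and those of KLHL9 4.83 and 5.47. The 6 called in A549 include IFNA1, whose signal was at the low end in both groups and whose arrays overlapped, so its call is not read as a rise. HACD4 fell by 0.28 in HCC827, where its groups overlapped, and by 0.76 in NCI-H358, where they did not. IFNB1, CDKN2B-AS1 and FOCAD passed the test in no line.

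**Figure D3:**
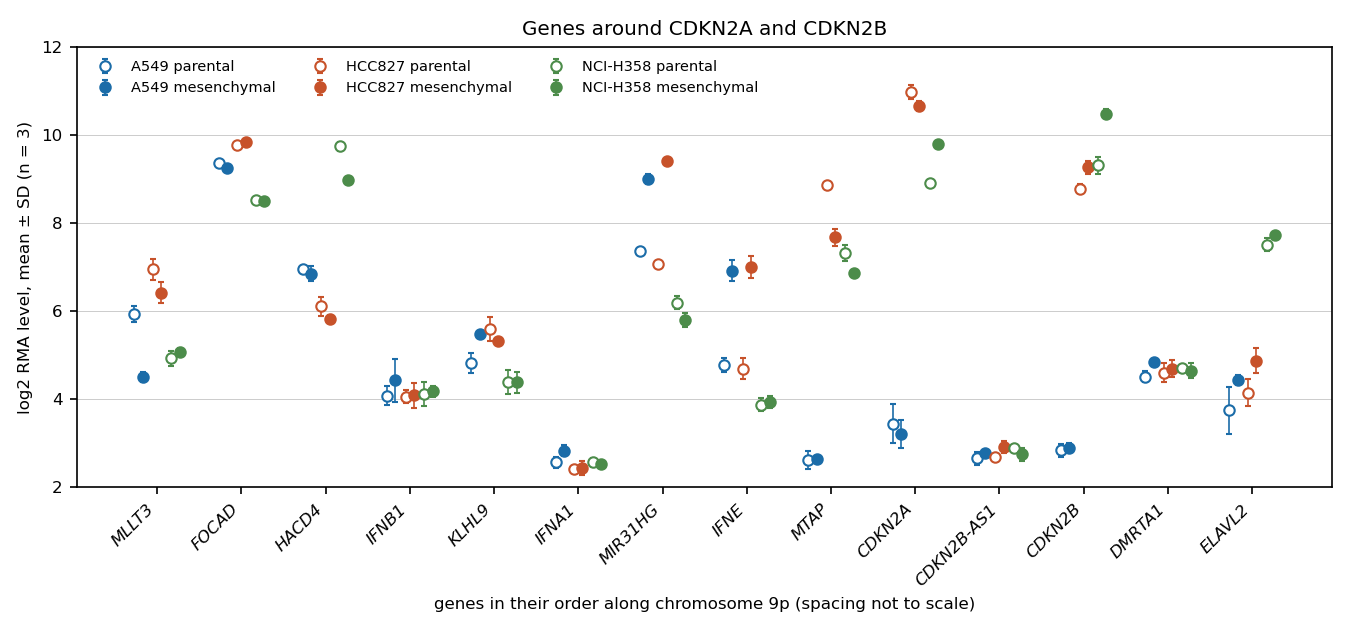
Mean log2 RMA level ± SD over 3 arrays (y axis) of CDKN2A, CDKN2B and 12 neighbouring genes, ordered along the chromosome with even spacing (x axis), in parental (open) and mesenchymal (filled) cells of A549 (blue), HCC827 (orange) and NCI-H358 (green). At MTAP, CDKN2A and CDKN2B the A549 groups lie between 2.62 and 3.44, below the groups of both other lines, while FOCAD and MIR31HG read above 7 in A549.

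CDKN2C, the INK4 gene that lies on another chromosome, had the largest increase of any member, and it was seen in HCC827. Parental HCC827 cells read 8.50, 8.19 and 8.22 and mesenchymal cells 10.59, 10.65 and 10.52. The groups lay far apart, with a rise of 2.28 ± 0.08 or 4.87-fold (limma adjusted p = 5.899e-13), just under the 5-fold threshold of the paper. In A549 it went the other way, from 8.98, 9.04 and 9.22 to 8.37, 8.35 and 8.32, a fall without overlap of 1.67-fold (log2 change -0.74 ± 0.08, limma adjusted p = 1.545e-06). In NCI-H358 it fell from 9.06, 8.99 and 9.09 to 8.79, 8.88 and 8.72, by 0.26 on the log2 scale (limma adjusted p = 0.0206). That small fall was no longer called after centring each array on its median (-0.22, adjusted p = 0.0677), or without parental replicate 1 or 3 or mesenchymal replicate 1 or 3 (adjusted p from 0.0531 to 0.0863). The change in HCC827 exceeded that in A549 by 3.02 ± 0.12 (limma adjusted p = 4.039e-12), and NCI-H358 minus HCC827 was -2.54 ± 0.12 (limma adjusted p = 5.463e-11). Mesenchymal HCC827 was the highest group (against parental A549, limma adjusted p = 6.092e-11), parental A549 and parental NCI-H358 differed by 0.03 (limma adjusted p = 0.77), and the lowest groups, mesenchymal A549 and parental HCC827, differed by 0.04 (limma adjusted p = 0.672).

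CDKN1A, a CIP/KIP gene with many known inducers, TGFβ among them, rose in A549 and HCC827 and fell slightly in NCI-H358. Its upstream bases are shown as the counterpart of those of CDKN2B, with capitals again marking the GC box, since the GC-rich stretch before this start is where SP1-type factors act together with SMADs in textbook accounts.
CDKN1A, chr6:36678464-36678713, plus strand, GRCh38.p14: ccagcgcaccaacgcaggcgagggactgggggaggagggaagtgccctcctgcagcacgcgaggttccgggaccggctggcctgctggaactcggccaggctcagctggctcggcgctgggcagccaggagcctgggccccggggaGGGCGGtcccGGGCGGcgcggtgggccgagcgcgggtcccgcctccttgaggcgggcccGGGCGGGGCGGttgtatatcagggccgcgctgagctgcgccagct
The GC box occurred 4 times, the last of them sharing a base with the one before it, and 13.9% of all windows held 3 or more. CAGAC was not found in this window on either strand.

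The A549 arrays read 9.55, 9.59 and 9.44 for CDKN1A in parental and 11.43, 11.48 and 11.48 in mesenchymal cells. All mesenchymal arrays were higher, and the rise was 1.94 ± 0.12 or 3.83-fold (limma adjusted p = 4.302e-10). In HCC827 the arrays moved from 7.68, 7.43 and 7.03 to 9.03, 9.04 and 9.23, a rise of 1.72 ± 0.12 or 3.28-fold (limma adjusted p = 1.433e-09). The rises in these lines did not differ by the test (-0.22, 95% interval -0.57 to 0.12, limma adjusted p = 0.311), except without HCC827 parental replicate 3 (-0.40, adjusted p = 0.0111). In NCI-H358 the levels were 9.19, 9.25 and 9.34 in parental and 8.92, 8.87 and 8.90 in mesenchymal cells. The groups did not overlap, and CDKN1A fell by 0.36 on the log2 scale, or 1.28-fold (SE 0.12, limma adjusted p = 0.0189). This call was lost without parental replicate 3 (-0.32, adjusted p = 0.0718) or mesenchymal replicate 2 (-0.35, adjusted p = 0.0535). The change in NCI-H358 lay below that in A549 (difference -2.30 ± 0.16, limma adjusted p = 5.663e-09) and in HCC827 (difference -2.07 ± 0.16, limma adjusted p = 2.911e-08).

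Across the 6 groups CDKN1A spanned 16.9-fold, from parental HCC827 at 7.38 to mesenchymal A549 at 11.46. The parental lines A549 and NCI-H358 differed by 0.27 (limma adjusted p = 0.0577), a difference that passed in 5 of the other settings tried, among them the fit of these groups alone (adjusted p = 0.0164). Parental NCI-H358, mesenchymal HCC827 and mesenchymal NCI-H358 followed without a called step between neighbours. Mesenchymal NCI-H358 was then 1.52 above parental HCC827 (limma adjusted p = 3.738e-09), and the latter was 2.14 below parental A549 (-2.14 ± 0.12, limma adjusted p = 4.052e-11).

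CDKN1B, encoding p27, fell in NCI-H358 and HCC827 and did not pass the test in A549. In A549 it read 9.63, 9.60 and 9.72 in parental and 9.67, 9.69 and 9.55 in mesenchymal cells, with overlap and a change of -0.01 (95% interval -0.19 to 0.17, limma adjusted p = 0.949). In NCI-H358 it fell from 9.85, 9.82 and 10.14 to 9.42, 9.46 and 9.48, by 0.48 on the log2 scale or 1.40-fold (SE 0.09, limma adjusted p = 0.000185). In HCC827, where it was highest, it went from 11.29, 11.06 and 11.05 to 10.89, 10.91 and 10.81, a change of -0.26 ± 0.09 (limma adjusted p = 0.0192). That call was lost in a fit of HCC827 alone (adjusted p = 0.0532), with centred arrays (-0.20, adjusted p = 0.0904), by the methods' t-test (adjusted p = 0.0879), and without parental replicate 1 (-0.18, adjusted p = 0.104) or mesenchymal replicate 3 (-0.23, adjusted p = 0.0686). Parental HCC827 was above parental A549 by 1.48 ± 0.09 and parental NCI-H358 above parental A549 by 0.29 ± 0.09 (limma adjusted p = 1.063e-10 and 0.00829), the latter not called without NCI-H358 parental replicate 3 (0.18, adjusted p = 0.0598).

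SKP2, the ubiquitin ligase subunit that marks p27 for degradation, fell in all 3 lines, and was picked out after its values were seen. It fell by 1.74 in A549, by 1.85 in HCC827 and by 0.93 in NCI-H358 (limma adjusted p = 7.318e-10, 2.254e-10 and 1.651e-06). In the same cells the mRNA of CDKN1B fell or did not pass the test. The arrays read mRNA, so p27 protein was not measured.

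CDKN1C, an imprinted gene of chromosome 11 encoding p57, rose in HCC827. Parental cells read 8.08, 7.55 and 7.63 and mesenchymal cells 8.95, 9.10 and 9.24, without overlap, a rise of 1.34 ± 0.18 or 2.53-fold (limma adjusted p = 6.042e-06). In A549 the arrays read 5.57, 5.91 and 5.15 before and 6.31, 5.84 and 5.81 after EMT, and the groups overlapped. The change of 0.44 ± 0.18 just missed the threshold (limma adjusted p = 0.0536), and it passed with an intensity trend (adjusted p = 0.0344), with dim probe sets removed (0.045), with centred arrays (0.51, adjusted p = 0.0229) and without parental replicate 2 (0.62, adjusted p = 0.00954) or mesenchymal replicate 3 (0.53, adjusted p = 0.0431). In NCI-H358 the values were 6.52, 6.57 and 6.66 against 6.65, 6.87 and 6.91, which overlapped, with a change of 0.22 (limma adjusted p = 0.362). The rise in HCC827 exceeded the change in A549 by 0.90 ± 0.25 (limma adjusted p = 0.00748), and NCI-H358 lay below HCC827 by 1.11 (-1.11 ± 0.25, limma adjusted p = 0.00173). The order of the lines was HCC827, NCI-H358 and A549, with parental HCC827 2.21 ± 0.18 above parental A549 (limma adjusted p = 7.234e-09) and parental NCI-H358 1.04 ± 0.18 above it (limma adjusted p = 5.989e-05).

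Imprinted and other neighbours of CDKN1C did not all move with it. Of 8 measured, 1 rose and 2 fell in A549, 1 rose and 4 fell in HCC827, and 3 rose and 2 fell in NCI-H358. Of all genes, 16.6%, 20.8% and 21.5% rose and 26.8%, 25% and 19.8% fell in these lines. With 8 genes, the counts are not read as a result about the neighbours. PHLDA2, which like CDKN1C is expressed from the maternal copy, fell by 1.41 in HCC827 and by 1.35 in NCI-H358 and rose by 0.34 in A549 (limma adjusted p = 5.354e-09, 1.201e-08 and 0.0144). SLC22A18 fell by 0.40, 1.78 and 1.84 in A549, HCC827 and NCI-H358 (limma adjusted p = 0.0368, 1.941e-08 and 1.666e-08). The non-coding H19 fell by 1.45 in A549 and by 0.87 in HCC827 (limma adjusted p = 1.455e-07 and 3.718e-05). KCNQ1OT1, the antisense RNA that silences CDKN1C on the paternal copy, rose by 0.93 in NCI-H358 (limma adjusted p = 0.000234), while CD81 fell by 0.25 in HCC827 and rose by 0.43 in NCI-H358. TSSC4 rose by 0.19 in HCC827 and by 0.25 in NCI-H358, and KCNQ1 and NAP1L4 passed in no line.

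Of the D cyclins, CCND1 moved like CDKN1A in direction. In A549 the parental arrays read 10.22, 10.48 and 10.56 and the mesenchymal arrays 11.46, 11.46 and 11.55, a rise without overlap of 1.07 ± 0.08 or 2.10-fold (limma adjusted p = 4.523e-09). In HCC827 it went from 10.17, 10.28 and 10.36 to 11.81, 11.82 and 11.77. These groups lay apart, and the rise of 1.53 ± 0.08, or 2.89-fold (limma adjusted p = 2.964e-11), exceeded that in A549 by 0.46 ± 0.11 (limma adjusted p = 0.00217). In NCI-H358 the levels were 11.10, 11.10 and 11.05 in parental and 10.89, 10.88 and 10.90 in mesenchymal cells. All mesenchymal arrays were lower, yet the change of -0.20 ± 0.08 missed the threshold (limma adjusted p = 0.051), which it passed in a fit of NCI-H358 alone (adjusted p = 0.0287), with an intensity trend (0.0155), with array weights (0.0169), with dim probe sets removed (0.0362) and by the methods' t-test on the same values. Mesenchymal HCC827 was the highest group and parental HCC827 the lowest, the latter 0.15 below parental A549 (limma adjusted p = 0.113), a difference that passed without A549 parental replicate 1 (-0.25, adjusted p = 0.00454).

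CCND3 fell in A549 and rose in HCC827 and NCI-H358. It read 10.26, 10.05 and 9.98 in parental and 9.55, 9.44 and 9.51 in mesenchymal A549 cells, a 1.51-fold fall without overlap (log2 change -0.60 ± 0.09, limma adjusted p = 2.879e-05). In HCC827 it rose from 7.70, 7.90 and 7.90 to 8.24, 8.29 and 8.36, by 0.46 ± 0.09 (limma adjusted p = 0.000291). In NCI-H358 it rose from 8.61, 8.60 and 8.44 to 8.86, 8.96 and 9.12, by 0.43 ± 0.09 (limma adjusted p = 0.000679). The rises in HCC827 and NCI-H358 differed by -0.03 (95% interval -0.30 to 0.23, limma adjusted p = 0.877), and both differed from the change in A549, by 1.06 and 1.03 (limma adjusted p = 2.478e-06 and 3.843e-06). Every neighbouring step in the order of the 6 groups passed the test for CCND3, from parental A549 through mesenchymal A549, mesenchymal NCI-H358, parental NCI-H358 and mesenchymal HCC827 to parental HCC827. Parental A549 was 2.26 above parental HCC827 (limma adjusted p = 5.541e-13, HCC827 minus A549 -2.26 ± 0.09).

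CCND2 gave a signal near the low end in every group, between 3.36 and 4.43 over all arrays and at percentiles 11.97 to 19.32 of the array as group means. Its changes were 0.04, -0.38 and 0.03 in A549, HCC827 and NCI-H358 (limma adjusted p = 0.86, 0.0662 and 0.914). In HCC827 the groups did not overlap, and the change passed when this line was fitted alone (adjusted p = 0.0435) and with array weights (-0.42, adjusted p = 0.0365). No neighbouring groups in the order of its levels differed by the test. Of groups farther apart, parental NCI-H358 read 0.56 below parental HCC827 (limma adjusted p = 0.00683). Mesenchymal NCI-H358 read 0.53 below parental HCC827 (limma adjusted p = 0.00903). At such a signal, 1 probe set does not tell a low mRNA level from a poor probe set.

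MYC, which the cytostatic response would hold down, did not fall by the test in any line and rose in NCI-H358. There the parental arrays read 9.46, 9.46 and 9.43 and the mesenchymal arrays 10.80, 10.77 and 10.79, a rise of 1.34 ± 0.07 or 2.53-fold (limma adjusted p = 2.919e-11) with the groups far apart. In A549 MYC read 11.27, 11.36 and 11.35 in parental and 11.19, 11.28 and 11.30 in mesenchymal cells. These overlapped, and the change was -0.07 with a 95% interval of -0.21 to 0.07 (limma adjusted p = 0.439). In HCC827 it read 11.99, 12.14 and 12.07 against 11.93, 11.87 and 12.10, again with overlap, and the change of -0.10 (95% interval -0.24 to 0.04, limma adjusted p = 0.238) passed only with array weights (-0.18, adjusted p = 0.0104) and without mesenchymal replicate 3 (-0.17, adjusted p = 0.0434). The rise in NCI-H358 differed from the change in A549 by 1.41 ± 0.09 and from that in HCC827 by 1.44 ± 0.09 (limma adjusted p = 2.111e-09 and 2.66e-09).

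Even after its rise, MYC was lower in NCI-H358 than in the other lines. Parental NCI-H358 was 1.88 below parental A549 (-1.88 ± 0.07, limma adjusted p = 1.003e-13) and 6.13-fold below parental HCC827 (limma adjusted p = 2.615e-15). Mesenchymal NCI-H358 was 0.47 below mesenchymal A549 (limma adjusted p = 7.338e-06), and mesenchymal HCC827 was 0.64 above parental A549 (limma adjusted p = 1.773e-07). The parental and mesenchymal groups did not differ from each other beyond their spread in HCC827 or in A549.

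Taking all members, the lines differed in their parental levels and in their response. Between parental lines, 8 of 10 members differed for HCC827 against A549, 7 for NCI-H358 against A549 and 10 for NCI-H358 against HCC827, where 57.1%, 57.9% and 52.6% of all genes differed. The change upon EMT differed between HCC827 and A549 for 5 members, between NCI-H358 and A549 for 8 and between NCI-H358 and HCC827 for 7, where 42.2%, 42.8% and 37.9% of all genes did. The comparisons of lines share arrays, so these counts are not independent of each other. Those of changes against A549 include CDKN2B, and for NCI-H358 also CDKN2A, whose A549 signals were at the low end in both states. The 10 members that differed between parental NCI-H358 and parental HCC827 include CCND2, whose signal was near the low end in both lines. The parental and mesenchymal groups did not overlap for 4, 9 and 8 members in A549, HCC827 and NCI-H358, as was the case for 52.4%, 51.2% and 51.6% of all genes. The median change of the members was 0.02, 0.47 and 0.13, against -0.02, 0.01 and 0.02 over all genes. The smallest two-sided p that an exact permutation test can reach for a single gene with 3 arrays a side is 0.1.

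The genes that act with or after the members were taken from lists of the pathway. Of 22 E2F targets of DNA replication, 0 rose and 21 fell in A549, with a median change of -0.71. In HCC827, 14 rose and 0 fell, with a median of 0.59, and in NCI-H358, 1 rose and 12 fell, with a median of -0.35. Thus in A549 MCM2, a helicase subunit, fell by 0.97 (limma adjusted p = 1.884e-06), while in HCC827 the DNA polymerase subunit POLA1 rose by 1.42 (limma adjusted p = 4.185e-10) and MCM5 by 1.29 (limma adjusted p = 9.73e-09). In NCI-H358 thymidine kinase, TK1, fell by 0.76 (limma adjusted p = 2.627e-06) and TYMS was the 1 gene that rose (0.40, limma adjusted p = 0.000422), and without parental replicate 2 there were 2. These 5 genes were named after their values were seen, and no E2F target passed the paper's thresholds. The paper reports slower growth of the TGFβ-treated cells than of their parental cells. The arrays do not measure growth, and how these counts relate to it was not tested.

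Among the CDK partners of the members, which are the kinases, the other cyclins, the CDC25 phosphatases, CKS subunits, SKP2 and the remaining INK4 gene CDKN2D, 1 of 19 rose and 12 fell in A549, 7 rose and 4 fell in HCC827, and 2 rose and 10 fell in NCI-H358. The shares of all genes are those given with the E2F targets. The count that rose was 2 in A549 without parental replicate 1 or mesenchymal replicate 2, and 1 in NCI-H358 without parental replicate 3 or mesenchymal replicate 1 or 3. CCNA1, a cyclin best known from the testis, was the only one of them at the paper's thresholds, and it rose in HCC827 from 3.52 ± 0.31 to 6.95 ± 0.12 (SD, n = 3; limma adjusted p = 1.772e-13). CDK6, a kinase that D cyclins activate, was the gene that rose in A549 (1.03, limma adjusted p = 1.648e-06), and CDK4, the other one, fell there by 0.40 (limma adjusted p = 7.957e-06). CDK4 read between 13.68 and 13.91 on all HCC827 arrays, 2.33 ± 0.05 above A549 in parental cells (limma adjusted p = 5.601e-16). CDKN2D rose by 0.64 in HCC827 (limma adjusted p = 7.94e-05) and fell by 0.75 in NCI-H358 (limma adjusted p = 1.891e-05). CDK4, CDK6 and CDKN2D were likewise named after their values were seen.

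Of 13 genes of the RB and E2F families, 3 rose and 8 fell in A549, 7 rose and 4 fell in HCC827, and 4 rose and 2 fell in NCI-H358, beside the shares of all genes given above. None passed the paper's thresholds. RB1 itself rose by 0.36 in A549 and by 0.26 in HCC827 (limma adjusted p = 0.00152 and 0.0116). E2F7, a repressor among the E2F factors, rose in all 3 lines, by 0.52, 1.58 and 1.65 (limma adjusted p = 0.00128, 3.532e-09 and 2.511e-09), and both were picked after their values were seen.

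MYC targets of ribosome production and nucleotide synthesis were counted beside MYC. In NCI-H358, where MYC rose, 12 of 21 rose and 1 fell, with a median of 0.30. In A549, where MYC did not pass the test, 1 rose and 16 fell, with a median of -0.42. In HCC827, 4 rose and 3 fell, against 20.8% and 25% of all genes. These counts moved with single arrays, to 9 rising without parental replicate 3 and to 6 falling without parental replicate 1. SRM, a polyamine synthase chosen here after its values were seen, rose by 0.75 in NCI-H358 (limma adjusted p = 0.000216) and fell by 0.48 in A549 (limma adjusted p = 0.00807). In the MYC network itself, its partners, antagonists and regulators, 5 of 13 rose and 3 fell in A549, 3 rose and 6 fell in HCC827, and 6 rose and 2 fell in NCI-H358. The shares of all genes given with the E2F targets apply to these counts too. MXD1, a repressor that competes with MYC for MAX, rose in A549 from 5.11 ± 0.13 to 7.43 ± 0.13 (SD, n = 3; limma adjusted p = 6.616e-12), at the edge of the 5-fold threshold. It fell by 0.80 in HCC827 and by 1.41 in NCI-H358 (limma adjusted p = 3.594e-06 and 4.156e-09).

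**Figure D4:**
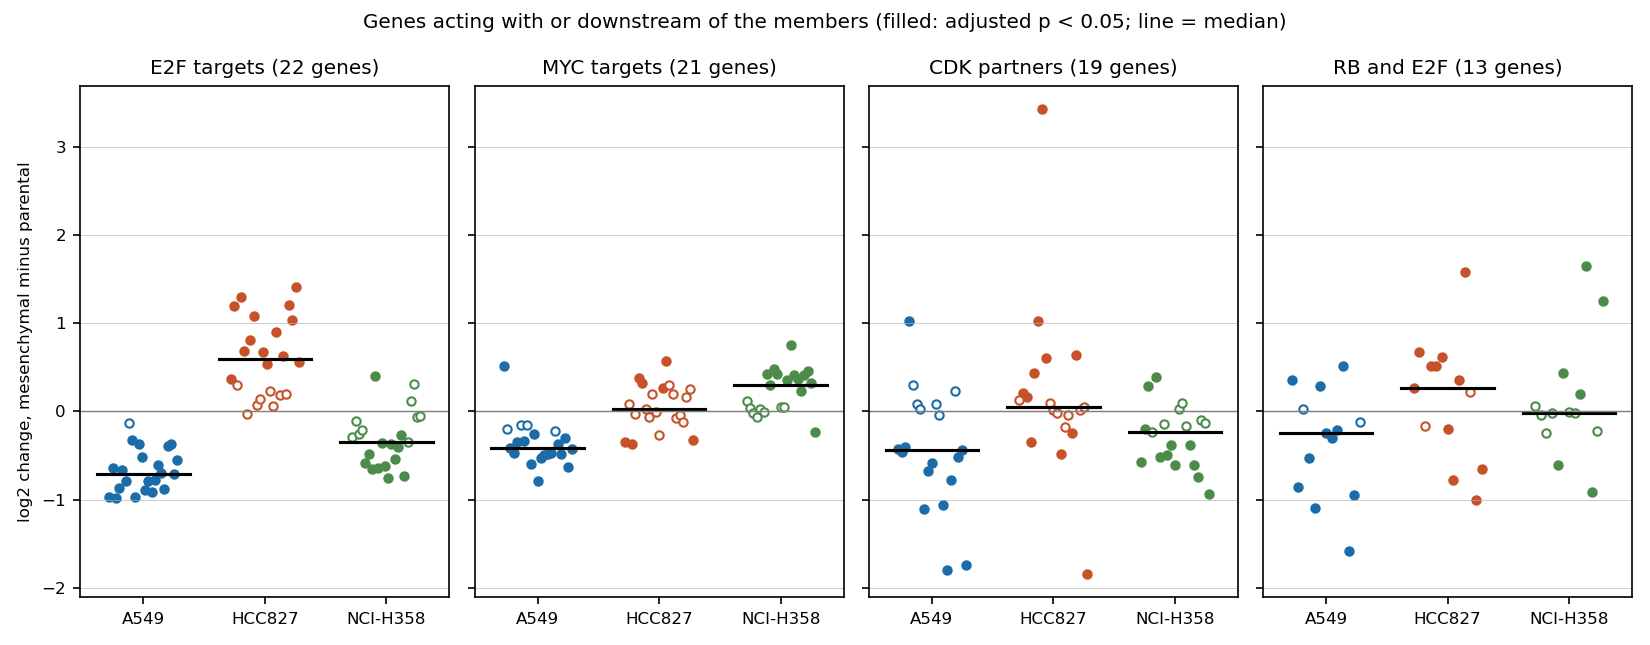
Log2 change from parental to mesenchymal cells (y axis) of each gene (points) of the E2F target, MYC target, CDK partner and RB and E2F lists in A549 (blue), HCC827 (orange) and NCI-H358 (green); filled points have a limma adjusted p below 0.05 and the line is the list's median. The E2F targets have medians of -0.71, 0.59 and -0.35 and the MYC targets of -0.42, 0.03 and 0.30 in the 3 lines.

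Of 16 genes of the cytostatic response, the SMADs and the factors that work with them, some of which also stand in the lists above, 4 rose and 7 fell in A549, 3 rose and 5 fell in HCC827, and 8 rose and 2 fell in NCI-H358. Of all genes, 16.6%, 20.8% and 21.5% rose and 26.8%, 25% and 19.8% fell. The HCC827 counts of this list lie near these shares. FOXO1, of the FOXO family that joins SMADs at CDKN1A, rose in A549 from 7.40 ± 0.04 to 10.56 ± 0.03 (SD, n = 3; limma adjusted p = 4.66e-12) and in NCI-H358 by 1.14 (limma adjusted p = 1.857e-06). Its change in HCC827 was 0.14 (limma adjusted p = 0.429). ID1, a repressor of differentiation factors that TGFβ is known to turn down in epithelial cells, fell in HCC827 from 12.84 ± 0.17 to 8.75 ± 0.21 (SD, n = 3; limma adjusted p = 2.005e-15), rose by 0.57 in A549 and fell by 0.59 in NCI-H358 (limma adjusted p = 0.0001 and 7.335e-05). ID3 likewise fell in HCC827, from 10.92 ± 0.01 to 7.94 ± 0.21 (SD, n = 3; limma adjusted p = 3.885e-14), and rose by 0.77 in A549 and by 1.32 in NCI-H358 (limma adjusted p = 1.757e-06 and 1.791e-09). GADD45B, a SMAD target chosen after its values were seen, rose in all 3 lines by 1.14, 1.57 and 0.78 (limma adjusted p = 1.064e-09, 1.12e-11 and 1.214e-07).

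For each member the genes with the most similar pattern over the 18 arrays were found by Pearson correlation, given as a description since the arrays fall into 6 groups of 3 and the best of 19849 genes is always high. DDX43 (r = 0.997), LY96 (0.995) and ZNF608 (0.993) were most like CDKN2A, and PCDHB14 (0.996), PAM (0.993) and FYN (0.993) most like CDKN2B. HSD17B11 (0.959), TMEM47 (0.954) and SMTN (0.952) followed CDKN1A, PGM5P1 (0.989), C19orf66 (0.986) and FMR1 (0.98) followed CDKN1B, and TBCK (0.979), LOC284385 (0.976) and GNG7 (0.973) followed CDKN1C. FAM85A (0.951), SYNJ2 (0.94) and FAM120C (0.923) were nearest to CDKN2C. The nearest to CCND1 were SHC3 (0.966), MAP4K4 (0.966) and ATP13A2 (0.95), and to CCND3 PCDH9 (0.99), SLC5A6 (0.986) and PMM2 (0.984). PHF23 (0.987), PJA1 (0.979) and SLC16A1 (0.979), the last a lactate transporter, were most like MYC. The patterns nearest to CCND2, SAA4 (0.816), ATF3 (0.795) and KMO (0.765), were less alike than those of any other member.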

How the data were processed

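Total RNA of 18 samples was hybridized to GeneChip U133 Plus 2.0 arrays. RMA was run by the authors, and the deposited values are log2 levels of 1 probe set per gene for 19849 genes. How the probe set was chosen is not given in the sources used here, other probe sets were not analysed here, and the table holds no detection calls. All columns bore the name of a sample's group and of 1 sample.

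All groups were fitted together with limma 3.58.1 (lmFit and eBayes) in R 4.3.3, without covariates, and p values were adjusted by Benjamini-Hochberg over all genes. Changes upon EMT, their differences between lines and differences between groups were contrasts of this fit. Percentiles place a level among the genes of its own array. Precision is limited by having 3 arrays per group, and no pair of arrays was identical. The members and gene lists were chosen with earlier results of these data known. Of the list genes, those passing the paper's thresholds (at most 4 per list) and the neighbours of CDKN2A and CDKN1C were to be named, and the others named are marked as chosen later. The results of 1 further list are not reported here. Promoter windows came from RefSeq (GRCh38.p14) and held 6 of the 10 members. Data were simulated with the spread of each gene in the joint fit, and 50 genes were changed at each fold size. For the A549 comparison, the fit recovered 50 of 50 genes changed 2-fold, 42 of 50 changed 1.5-fold and 11 of 50 changed 1.25-fold. There were 10 false calls among the unchanged genes of the 19849 simulated. Far fewer genes were changed there than the 43.4% called in the real A549 data, so these rates may not carry over.

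Alternatives were a fit of the compared groups alone, an intensity trend, a robust prior, array weights, removal of probe sets under the 25th percentile, centring on array medians, the methods' t-test, other thresholds and each array left out in turn.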

Additional observations from a re-analysis of the deposited data

Results flagged for a closer look

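The change upon EMT differed between lines for 9 of the 10 members, in 20 of the 30 comparisons of a pair of lines, by a contrast of the limma fit with an adjusted p below 0.05. The background is high, as the change also differed for 42.2% (HCC827 and A549), 42.8% (NCI-H358 and A549) and 37.9% (NCI-H358 and HCC827) of all genes. CCND2 was the member for which no such difference passed. Values are differences between log2 changes.

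Between HCC827 and A549, the change was higher in HCC827 for CDKN2C (3.02), CCND3 (1.06), CDKN1C (0.90), CCND1 (0.46) and CDKN2B (0.42). Between NCI-H358 and A549, it was higher in NCI-H358 for MYC (1.41), CDKN2A (1.13), CDKN2B (1.10), CCND3 (1.03) and CDKN2C (0.48) and lower for CDKN1A (-2.30), CCND1 (-1.27) and CDKN1B (-0.47). Between NCI-H358 and HCC827, it was higher in NCI-H358 for MYC (1.44), CDKN2A (1.22) and CDKN2B (0.68) and lower for CDKN2C (-2.54), CDKN1A (-2.07), CCND1 (-1.73) and CDKN1C (-1.11).

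In these comparisons CDKN2A and CDKN2B read near the low end of the scale in A549 in both states, so the A549 side is a change between signals of that size. The contrasts of these genes against A549 mostly restate the change in the other line. For CDKN2C the changes in A549 and NCI-H358 were both decreases and differed in size.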

How the results depend on the processing

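Precision is set by 3 arrays per group and 1 probe set per gene, and a change in a signal near the low end of the scale (CCND2, and CDKN2A and CDKN2B in A549) is poorly measured. No paired analysis was possible because the labels give the samples no replicate numbers.

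Of 207 values of a member's change under other settings, 188 stayed on their side of the threshold in the same direction, 4 fell short of it, 13 passed it and 2 reversed, both without a call: CDKN1B in A549 (0.059 with arrays centred on their medians) and CCND2 in NCI-H358 (-0.057 with array weights). Of 177 differences between lines, 176 kept both, and of 177 between parental lines 170 did. CCND2 gave no value after the removal of dim probe sets. Of the members that fell, 1 in HCC827, there were 2 in a fit of HCC827 alone, 4 with array weights and 0 with centred arrays or by the methods' t-test. Over 2-fold, 2 rose in NCI-H358 and 0 fell in any of A549, HCC827 or NCI-H358. Over 5-fold with an adjusted p below 1e-05, 0 rose and 0 fell in any line. The thresholds themselves account for these lower counts. For the other settings the cause was not tested.

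With 1 array left out at a time, the number that fell was 0 to 1 in HCC827 and 1 to 3 in NCI-H358, with 0 without HCC827 parental replicate 1 or mesenchymal replicate 3 and 1 without NCI-H358 parental replicate 3. Values without a call that changed sign were the changes in A549 of CDKN1B (-0.035 to 0.035), CDKN2A (-0.42 to 0.020), CDKN2B (-0.019 to 0.13) and CCND2 (-0.056 to 0.14), of CCND2 in NCI-H358 (-0.16 to 0.19), the differences between lines of CDKN2A (-0.35 to 0.086) and MYC (-0.099 to 0.015) for HCC827 minus A549, of CCND2 for NCI-H358 minus A549 (-0.21 to 0.15) and of CCND3 for NCI-H358 minus HCC827 (-0.10 to 0.035), and CDKN2C in parental NCI-H358 minus parental A549 (-0.084 to 0.037).

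Counts of list genes that moved by over 1.5 times were the MYC targets that rose in HCC827 (4, against 7 with an intensity trend or centred arrays and 2 by the methods' t-test), the E2F targets that rose in NCI-H358 (1, against 2 in a fit alone, with a trend, array weights or centring), and the CDK partners that rose in A549 (1, against 2 or 3) and in NCI-H358 (2, against 1 in a fit alone or by the t-test).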
